A study of Xenopus laevis with 3 samples.

Results

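Nestin is encoded in Xenopus laevis, the African clawed frog, by a pair of homeologs, the copies that an allotetraploid genome keeps on its long (L) and short (S) subgenomes. Both copies, nes.L (Xelaev18040537m) and nes.S (Xelaev18042775m), were found by the symbol nes in the deposited pair table, and they are 2 of the 11603 genes listed with at least 1 amino acid change. Together they hold 56 of the 29008 missense changes, 41 in nes.L and 15 in nes.S. The gene was picked because earlier results from the same tables had shown many predicted damaging sites in nes.L, a high missense fraction in nes.S and a wide gap between the copies. Those counts are therefore given as a description, with no test.

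The tables come from sequencing the RNA of whole Nieuwkoop-Faber (NF) stage 42 tadpoles, with RNA of 10 pooled tadpoles for each cross. The 3 libraries were offspring of matings between the albino and the pigmented J strain (both directions of the cross), inbred albino offspring, and inbred pigmented J strain offspring, with 1 library per group. All were raised in the same gentamycin-containing medium and were rRNA-depleted, and no treatment or transgene distinguishes the groups. The strain letter codes of the inbred libraries contradict each other in the labels, so the groups follow the sample titles. The labels' design text states a depth of 30000000 to 47000000 paired reads of 100 bases per library. No column of the deposited tables names a library, so every value below belongs to the 3 libraries as a whole, no site can be given to a strain, and no spread between libraries could be measured. Expression of nestin or of markers of any cell type was not analysed here.

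Nestin is a class VI intermediate filament protein, best known as a marker of neural stem and progenitor cells and also made in developing muscle. Like its relatives it has a coiled-coil rod, which lies near the start of the protein, and unlike most of them it carries a very long tail after the rod. It builds filaments together with vimentin rather than alone, and in mammals the kinases Cdk1 and Cdk5 phosphorylate it.

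A missense site changes an amino acid, and PolyPhen-2, run by the authors with its HumVar model, sorts each such change into benign, possibly damaging or probably damaging by a predicted probability between 0 and 1. In these tables possibly damaging starts at 0.447 and probably damaging at 0.909. In nes.L, 24 changes were benign, 11 possibly and 1 probably damaging, and 5 had no prediction, beside 26 synonymous sites. In nes.S, 10 were benign, 3 possibly and 0 probably damaging, and 2 had no prediction, beside 1 synonymous site. Damaging changes of both classes were thus 12 of 36 predicted sites in nes.L (33.3%, Wilson 95% interval 20.2 to 49.7) and 3 of 13 in nes.S (23.1%, 8.18 to 50.3), against 19.9% in all other genes. These shares rest on the counts nestin was chosen for and carry no test. Wilson intervals cover counting error over sites only. By number of damaging sites 1 gene of the series exceeded nes.L and 1 other equalled it. For nes.S, 107 genes exceeded it and 166 others equalled it.

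The single probably damaging change of either copy was A1304T in nes.L, where alanine is the residue of the authors' protein model, 1304 its position counted from the first residue, and threonine the variant. Its probability of 0.911 lay just inside the class limit. K243N followed at 0.886, just outside that limit, then S887C at 0.883, which brings in a cysteine, and D1116E at 0.871. The glutamate-to-lysine changes E861K and E1348K, which turn an acidic side chain into a basic one, stood at 0.807 each. V1150A had 0.737, Y1176C 0.718, R449H 0.711, T841I 0.692, S1361G 0.691 and V1667L 0.631. The damaging changes of nes.L therefore lay in a band from 0.631 to 0.911 (median 0.772), and none of its predicted sites fell between 0.398 and 0.631.

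In nes.S the damaging changes were T1442I at 0.711, E1593G at 0.617 and A154E at 0.474. The last lay just above the class limit of 0.447, and it was the 1 damaging change of either copy that the table's other class column calls neutral, as it does for 339 of 4803 damaging sites in the series. Just below the limit stood Q779H in nes.L and Q872H and Q1019H in nes.S, all at 0.398.

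Most benign changes had probabilities close to 0. In nes.L 13 of its 24 benign changes had a probability of exactly 0, among them P415A, S481G, K575E and F683L, and 19 of 24 had at most 0.006. The remaining benign changes were T435A (0.165), D1064G (0.108), I1274F (0.099) and L1142S (0.027), besides Q779H. In nes.S 2 of 10 benign changes, R1453S and S1492C, had a probability of 0, 6 of 10 had at most 0.006, and Q137E (0.161) and Q1000E (0.095) lay higher.

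Possibly damaging changes made up 11 of 12 damaging sites in nes.L (Wilson interval 64.6 to 98.5%) and 3 of 3 in nes.S (43.9 to 100%), against 65% in all other genes, a value that both intervals hold. A probability of at least 0.911, the highest in nestin, was reached by 6.94% of all predicted sites. At the probabilities of the damaging nes.L sites the model states a false positive rate between 0.0994 and 0.163, and at those of nes.S between 0.148 and 0.194. The true positive rates it states there are 0.687 to 0.799 and 0.78 to 0.829. These are the model's own rates, were not measured on the frog changes, and are no error rate of the nestin calls.

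**Figure D1:**
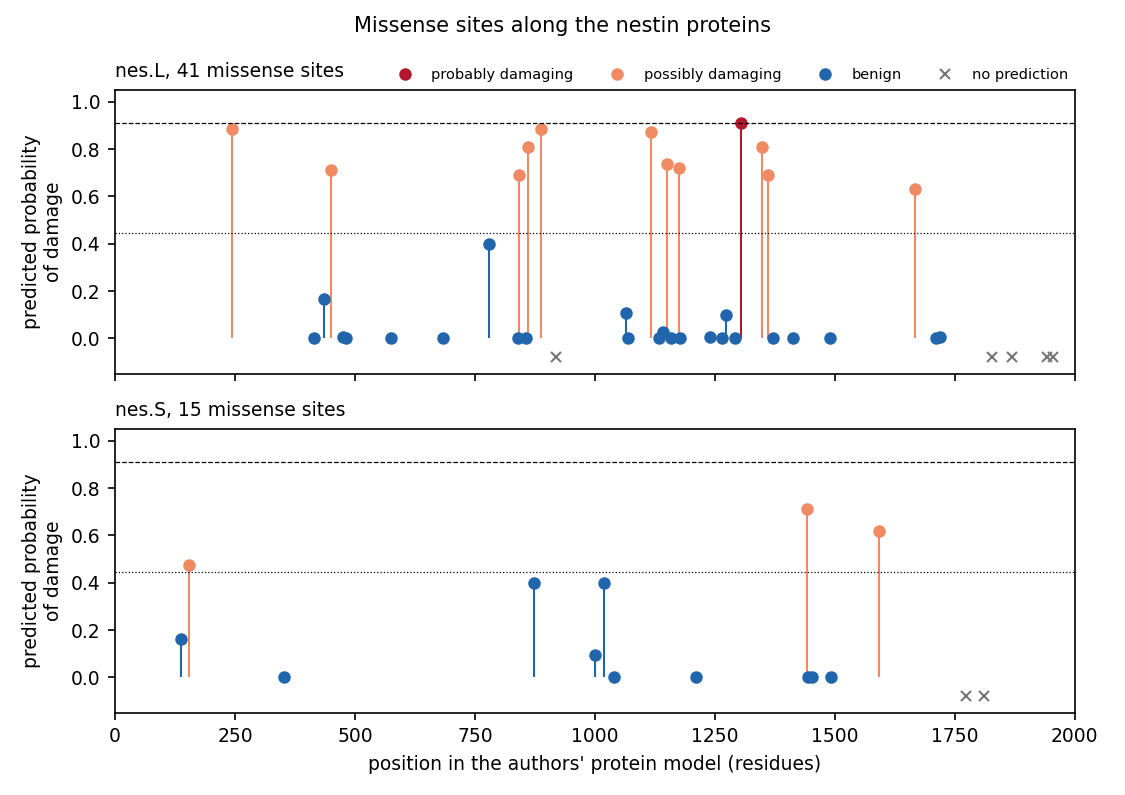
Each missense site of nes.L (top) and nes.S (bottom) by its residue position in the authors' protein model, with the predicted probability of damage as a stem. Colours give the class, crosses below 0 mark sites without a prediction, and the dotted and dashed lines are the limits of 0.447 and 0.909. Damaging sites of nes.L run from residue 243 to 1667, and sites after residue 1750 have no prediction in either copy.

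The changes spanned 1712 residues in nes.L and 1674 in nes.S. In nes.L they ran from residue 243 to residue 1954 with a median position of 1150, and in nes.S from 137 to 1810 with a median of 1210. No position carried more than 1 change. The density over the span was 2.39 changes per 100 residues in nes.L and 0.896 in nes.S, and the median gap between neighbouring changes was 22.5 and 70 residues. Protein lengths were not used here, so the part of each protein that the changes span is unknown. The positions of the copies are not aligned to each other.

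Along nes.L the number of changes differed between windows of 250 residues, and whether it did so more than by chance was not tested. The first 250 residues held 1 change, the windows from 251 to 500 and from 501 to 750 held 5 and 2, and the next, from 751 to 1000, held 7. The windows from 1001 to 1250 and from 1251 to 1500 held the most changes, 10 and 9. Damaging changes numbered 3 in each of the windows that start at 751, 1001 and 1251. Windows from 1501 and from 1751 held 3 and 4. The stretch of 25 residues with the most changes was picked for its count and ran from residue 839 to 861. It carried 4 changes, D839E, T841I, T856S and E861K, of which T841I and E861K were damaging. The neighbouring residues 1176 and 1177 were both variable, with Y1176C damaging and P1177S benign at a probability of 0.

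The S copy had 2 changes in its first 250 residues, Q137E and A154E, and then 1 up to residue 500, T351I. No change was listed from 501 to 750, and the longest gap of nes.S, 521 residues from T351I to Q872H, covers this window. In nes.S the stretch of 100 residues with the most changes, picked for its count, held 4 between residues 1442 and 1492. There the damaging T1442I was followed by the benign D1445G, R1453S and S1492C. Both copies thus had changes in every window of 250 residues up to 2000 except that from 501 to 750, where nes.S had none.

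The number of aligned residues, which is how many homologous proteins PolyPhen-2 had to judge a position, was highest near the start of both proteins. At K243N in nes.L it was 53, and at Q137E and A154E in nes.S it was 43. From residue 415 on, predicted nes.L sites rested on 2 to 11 aligned residues, with 11 at the changes from 839 to 887. From residue 872 on every predicted nes.S site rested on 2. The 5 nes.L changes without a prediction (G919D, A1827T, F1870S, S1942T and D1954E) and the 2 of nes.S (E1774K and R1810K) had 0 aligned residues, as did all 4898 unpredicted sites of the series, counting empty fields as 0.

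The median number of aligned residues over predicted sites was 3 in nes.L and 2 in nes.S, against 44 over all predicted sites in the series. Sites with fewer than 10 made up 30 of 36 in nes.L (83.3%) and 11 of 13 in nes.S (84.6%), against 28.3% in all other genes. Of the 1112 genes with at least 5 predicted sites, 18.9% had a median as low as nes.L or lower and 13% one as low as nes.S or lower. These shares have no test, because sites of 1 protein share its alignment. With at least 10 aligned residues 6 sites of nes.L remained, of which K243N, T841I, E861K and S887C were damaging, and 2 of nes.S, of which A154E was damaging.

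**Figure D2:**
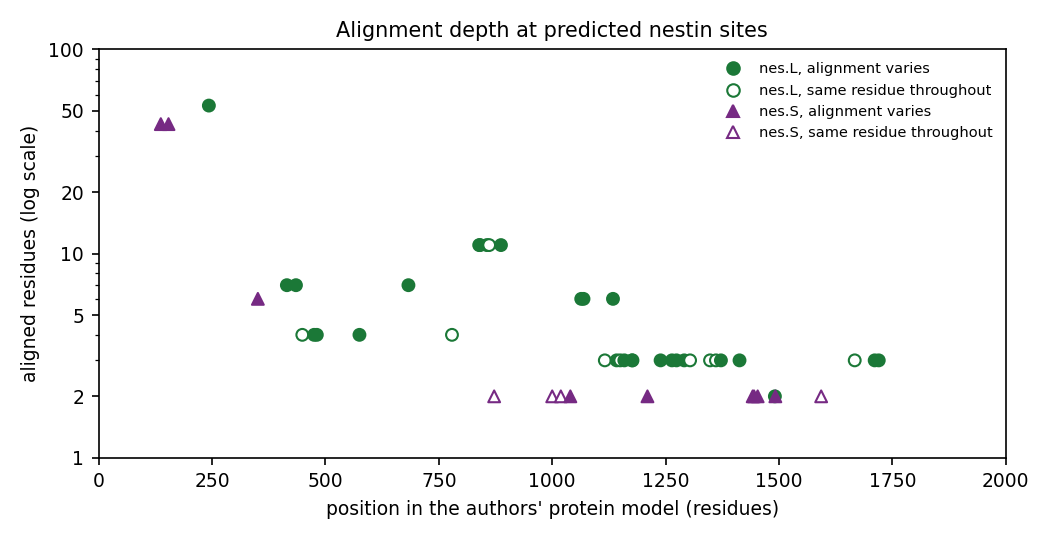
Number of aligned residues (log axis) behind each predicted site against its residue position, for nes.L (circles) and nes.S (triangles). Filled symbols are positions where an aligned protein differs from the frog residue and open ones positions with the same residue throughout. Sites before residue 250 rest on 43 or 53 residues and all later ones on 11 or fewer.

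PolyPhen-2 computes the class from what the aligned proteins carry at a position, so the following counts describe the input of the prediction. At 8 of the 12 damaging sites of nes.L no aligned protein differed from the frog residue, and these were R449H, E861K, D1116E, V1150A, A1304T, E1348K, S1361G and V1667L. Only Q779H was such a site among the 24 benign ones. The variant residue itself was found in an aligned protein at 0 of 12 damaging sites and 13 of 24 benign sites of nes.L. In all other genes the aligned residues were invariant at 39% of damaging and 2.82% of benign sites, and the variant residue was found at 8.73% and 68.3%.

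In nes.S 2 of 3 damaging sites, T1442I and E1593G, and 3 of 10 benign sites, Q872H, Q1000E and Q1019H, were invariant. At A154E the alignment held glutamate in another protein, and among benign sites the variant residue was found at Q137E and S1492C. The closest protein that differed from the frog residue was 67.6% identical to nes.S at all 6 varying sites from T351I onward, but at most 41.5% identical to nes.L at its varying sites. Over all predicted sites, invariant positions were 9 of 36 in nes.L (25%) and 5 of 13 in nes.S (38.5%), against 10% in all other genes. The median of aligned residues was 44 over the series, against 3 in nes.L and 2 in nes.S. These shares, and those by class above, therefore compare alignments of unlike depth.

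At these 14 invariant positions, which rest on 2 to 11 aligned residues, the profile score difference could be set beside that of the same exchange in other proteins. This score difference sets the reference residue against the variant residue in the alignment, with higher values for a less favourable variant. For 13 of the 14 changes another gene held the same exchange at an invariant position with the same score difference to 3 decimals, at 158 sites summed over the 13 changes, where a site can count for more than 1 change. These were 158 of 442 invariant sites with the same exchange in other genes, and at 152 of the 158 the probability was also the same. Each nestin copy counts here as another gene for the other, so glutamine-to-histidine matches between the copies are included. Most invariant sites with the same exchange in other genes had the nestin score difference for 7 of the 14 changes. For the other 7 most had another value. Q779H of nes.L (score difference 1.68, 4 aligned residues) had the same score and probability as Q872H and Q1019H of nes.S (2 aligned residues each), and 23 of 28 sites outside nes.L matched its score. For T1442I in nes.S 34 of 43 sites elsewhere had the same score difference of 1.49, and for R449H in nes.L 20 of 36 had the same 1.87. Matches were few for A1304T (4 of 66), E861K and E1348K (3 of 43 each) and D1116E (3 of 35), and V1667L had none among 18.

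Some exchanges recurred. Of 33 different exchanges in nes.L and 12 in nes.S, 7 were seen in both. No such count for other homeolog pairs is given here, so this overlap cannot be called high or low. The shared exchanges were aspartate to glycine, glutamate to lysine, glutamine to glutamate, glutamine to histidine, serine to cysteine, threonine to isoleucine and valine to isoleucine. The same exchange could fall into different classes. S887C in nes.L was possibly damaging (0.883, 11 aligned residues) while S1492C in nes.S was benign (0, with 2). T841I in nes.L (0.692) and T1442I in nes.S (0.711) were damaging while T351I in nes.S had a probability of 0.001. Within nes.L, aspartate to glutamate and lysine to asparagine each occurred 3 times, and in each case 1 was damaging (D1116E and K243N). Of the others, D839E, K1069N and K1491N were benign and D1954E had no prediction.

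Serine and aspartate were the most frequent reference residues in nes.L, with 5 changes each, followed by lysine with 4, whereas glutamine led in nes.S with 4 of 15. Threonine was the most frequent variant residue in nes.L, with 6. A change of side chain charge (aspartate and glutamate negative, lysine and arginine positive, the rest neutral) was found at 12 of 41 changes in nes.L and 8 of 15 in nes.S. In nes.L 7 of these made the residue more negative and 5 more positive, and in nes.S 5 and 3, so that the summed change was -1 in each copy. Of the damaging changes, K243N, R449H, E861K and E1348K in nes.L and A154E and E1593G in nes.S changed the charge.

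Charge class, acidic residues and base exchange were not themselves used in choosing nestin. The damaging calls behind that choice do depend on the exchanged residues, so the measures are not fully independent of it. These 3 measures were tested for every gene with at least 5 missense sites against the rest of the listed genes. The test was Fisher's exact (two-sided) with Benjamini-Hochberg adjustment over every gene tested. Both copies met the minimum of 5 sites, but few sites limit what the test can call, above all the 15 of nes.S. The charge-changing share was 29.3% in nes.L (Wilson interval 17.6 to 44.5) against 28% in all other genes (Fisher's exact adjusted p = 1), and 53.3% in nes.S (30.1 to 75.2) against 28% (unadjusted p = 0.0409, Fisher's exact adjusted p = 0.9). No gene passed: 0 of 1362 were called (0%), and 68 (4.99%) had an unadjusted p under 0.05, nes.S among them.

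Acidic reference residues made up 19.5% of changes in nes.L (8 of 41) and 20% in nes.S (3 of 15), against 10.8% in all other genes. Neither passed (unadjusted p = 0.0789 for nes.L and 0.217 for nes.S, Fisher's exact adjusted p = 1 for both), nor did any of the 1362 genes (0%), of which 37 (2.72%) had an unadjusted p under 0.05. Base changes are not filled in for nestin and were inferred from the residue pair where every single-base path is of the same kind. Transitions were 20 of 38 such changes in nes.L (52.6%) and 8 of 15 in nes.S (53.3%), against 48.2% in all other genes (Fisher's exact adjusted p = 1 for both). Again 0 of 1226 genes passed (0%), with 36 (2.94%) at an unadjusted p under 0.05.

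The copies were also compared with each other on these measures, beside every homeolog pair with at least 5 usable sites in each copy. The charge-changing share differed by -24.1 percentage points, L minus S (Newcombe interval -48.8 to 3.69, Fisher's exact p = 0.122, adjusted p = 1). With histidine taken as positive it was -37.4 points (Fisher's exact p = 0.0153, adjusted p = 0.591). The acidic share differed by -0.488 points (-27.3 to 19) and the transition share by -0.702 points (-27.4 to 26.9). Fisher's exact adjusted p was 1 for the last 2 as well. No pair passed, with 0 of 77 called for charge and for acidic residues and 0 of 65 for transitions (0% each). Unadjusted p was under 0.05 in 3 pairs for charge (3.9%), 1 for acidic residues (1.3%) and 1 for transitions (1.54%). For the last 2 measures the intervals hold differences of more than 15 points either way.

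**Figure D3:**
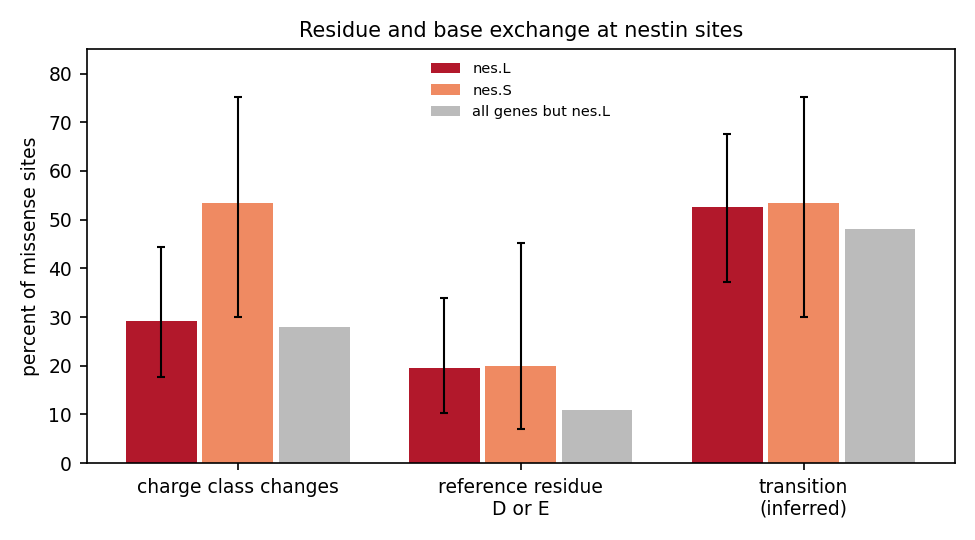
Percent of missense changes that alter the charge class, start from aspartate or glutamate, or are inferred transitions, in nes.L, nes.S and all genes other than nes.L. Error bars are Wilson 95% intervals over sites. The nes.S bar for charge, 53.3%, stands highest above the other genes (28%), with an interval of 30.1 to 75.2.

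Other intermediate filament proteins held far fewer changes per copy than nes.L. These counts are not scaled by protein length, which was not used here, so they do not compare densities. Of 44 copies in the pair table (vimentin, internexin, neurofilament, beaded filament and keratin genes) 16 were listed, where 32.7% of all copies there were. They held 50 missense and 67 synonymous sites. The median was 2 missense sites per copy, against 1 over all listed genes, and the highest count was 8. Damaging changes numbered 7 of 43 predicted, against 19.9% in all genes but nestin. They lay in 5 copies, or 5 of 16, where 29.9% of all listed genes held at least 1. The keratin-like gene krt222-like.L held 8 missense and 11 synonymous sites, 2 of them damaging, krt.L held 6 and 8 with 2 damaging, krt8.2.S held 6 and 1 with 1 damaging, and krt.S held 5 and 9 with 0 damaging. The last was taken by symbol from a tie with krt222-like.S, which had 5 and 2 with 0 damaging, and krt8.2.L, which had 5 and 9 with 1 damaging. Vimentin, the filament partner of nestin, held 1 missense and 7 synonymous sites in vim.S, and vim.L was not listed; it was named for its role after its values were seen.

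Of the neural progenitor genes 7 of 28 copies in the pair table were listed (32.7% of all copies there were). They held 4 damaging of 15 predicted sites, against 19.9% in all genes but nestin, and 3 of the 7 held at least 1, against 29.9% of all listed genes. The replication licensing inhibitor geminin, gmnn.L, held 7 missense and 2 synonymous sites, the proliferation marker mki67-like.L 5 and 4, its S copy 2 and 6, and the receptor notch1.L 3 and 22. Among linkers of filaments and kinases acting on nestin, 9 of 14 copies were listed, again beside 32.7% of all copies. They held 11 damaging of 47 predicted sites, against 19.9% in all genes but nestin. The damaging sites lay in 3 of the 9 copies, where 29.9% of all listed genes held at least 1. The 9 were linkers but for cdk5r1.S, and no gene of a kinase itself was among them. The spectraplakin dst.S held 42 missense sites, its L copy 10, the related macf1.L 9, and the periplakin gene ppl.L 7. Of these 5, 2, 4 and 0 were damaging, in that order, and 21 of the dst.S sites had no prediction. None of the tested copies of these lists (6 or fewer in each list) passed for charge, acidic residues or transitions in either direction, where 0% of all genes did. Apart from dst.S, the tested copies held 10 or fewer missense sites, so only an extreme share, if any, could have passed. The lack of a call therefore says little about them.

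**Figure D4:**
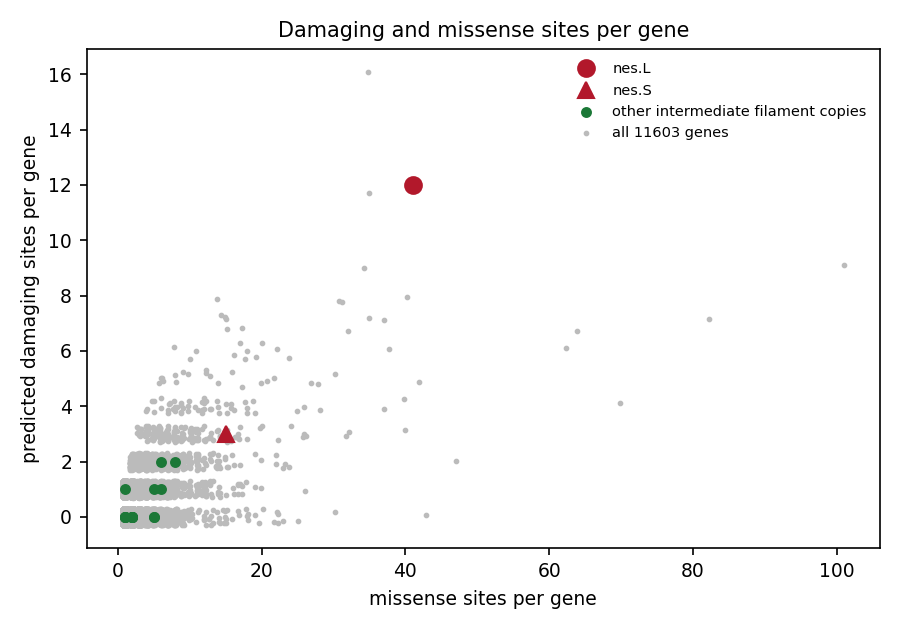
Predicted damaging sites against missense sites for each listed gene (grey, jittered by up to 0.3), with nes.L, nes.S and 16 other intermediate filament copies marked. The nes.L point lies at 41 missense and 12 damaging sites and nes.S at 15 and 3, while no other filament copy exceeds 8 and 2. Counts are not scaled by protein length.

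The genes most like nestin were sought by the distance over log2(count + 1) of benign, possibly damaging, probably damaging, unpredicted and synonymous sites, among the other listed copies with a symbol. Nearest to nes.L were palb2.S (distance 2.06), which encodes a partner of BRCA2, with 24 missense sites, the histone methyltransferase gene kmt2c.S (2.54) with 27, ehbp1l1-like.S (2.70) with 14, and tbc1d10b.S (2.76), a Rab GTPase-activating protein gene, with 16. Each held fewer missense sites than nes.L. Nearest to nes.S were the corepressor gene lcor-like.S (1.60), zzz3-like.S (1.75), the chromatin remodelling gene bptf.S (1.76) and the kinetochore gene nsl1.S (1.83), with 9, 10, 14 and 10 missense sites and at most 4 synonymous ones. Over both copies at once, the nearest pairs were calcoco2 (4.72), vcan (4.75), krt222-like (4.90) and palb2 (4.94). None of these 4 pairs held more than 18 missense sites in its L copy, where nes.L held 41. Of their S copies, palb2.S held 24 missense sites and the others 8 or fewer, where nes.S held 15. In calcoco2, an autophagy receptor gene, they numbered 11 and 5, and in vcan, which encodes the matrix proteoglycan versican, 9 and 8.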

How the data were processed

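The authors deposited 3 tables of the whole series: counts of missense and synonymous sites per gene, PolyPhen-2 output per change (HumVar model, per the table's name), and a table of L and S pairs. Per the file headers, the per-change table gives the predicted probability and its error rates (a fraction), profile scores, a count of aligned residues and a percent identity. An empty field for the congruency of the variant residue was read as an alignment without a deviating residue. Of 2425 predicted sites read so in the series, 2375 had a score difference above 0. The variant residue was taken as found where a congruency of sequences that carry it was given. Upstream tools named by the submitters' processing notes, in no stated order, are SAMtools, TopHat, Trimmomatic and CASAVA 1.8.2. How variants were called and filtered, and on which genome build, is not given in the sources used here, and read depth per site is unknown. A header line counted as a gene was left out of the per-gene table. For all 11603 genes its class counts equalled the tallies of the per-change table.

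The members, gene lists and tests were chosen with earlier results of these data known. Names beginning with Xetrov, LOC or MGC were not taken as symbols. The named genes are both nestin copies with every damaging site, the 4 nearest copies or pairs by site counts, and the 4 members of each list with the most missense sites, ties by symbol; benign and unpredicted sites were also named, and the residue comparisons single out sites after their values were seen. The transition measure replaces one planned on deposited bases. Fisher's exact test was tested on simulated data first. Python 3.11.15, SciPy 1.17.1 and statsmodels 0.14.6 were used.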

Additional observations from a re-analysis of the deposited data

How the results depend on the processing

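Of 47 alternative values, 41 kept their direction and their side of the threshold, or stayed within the interval of the value reported. Many of these were fixed by construction and are no sign of robustness. Changing the minimum number of sites left nestin's odds ratio or difference as it was and altered only the adjustment. Requiring at least 2 aligned residues, or 1 change per position, removed no predicted nestin site. The damaging share of nes.L was 2.78% with probably damaging sites alone and also at a probability of at least 0.9. With at least 10 aligned residues it was 66.7% (4 of 6, Wilson interval 30 to 90.3). All of these 6 sites but K243N lie between residues 839 and 887 and rest on 11 aligned residues. The damaging share of nes.S was 0% with probably damaging sites alone and also at a probability of at least 0.9. With at least 10 aligned residues it was 50% (1 of 2, Wilson interval 9.45 to 90.5). These settings count fewer sites by construction, and no share of other genes is given at them. A probability of at least 0.911, the highest in nestin, was reached by 6.94% of all predicted sites. With probably damaging sites alone the shares of both copies lay below this 6.94%. Its limit of 0.911 is not the class limit of 0.909, so the 2 are not the same measure. With both damaging classes nes.L had 33.3% (Wilson interval 20.2 to 49.7), against 19.9% in other genes. The nes.S share was 23.1% (8.18 to 50.3), and its interval holds 19.9%. Nestin was chosen for these counts, and they carry no test. The Wilson intervals for probably damaging sites alone, 0.492 to 14.2% in nes.L and 0 to 22.8% in nes.S, hold 6.94%. With histidine taken as positive, the odds ratio for charge-changing sites in nes.L turned to 0.918, where it was 1.09 as reported (Fisher's exact adjusted p = 1 in both), and the share in nes.S was 66.7% (unadjusted p = 0.00889, Fisher's exact adjusted p = 0.638). Over its 5 alternatives the adjusted p of nes.S ran from 0.464 to 1. The class column of the table that calls A154E neutral gave 15.4% for nes.S; it, the use of all missense sites as denominator and the inferred base changes were chosen after seeing the data. No paired analysis was possible because each group has 1 library and no column names one. Few aligned residues, few sites in nes.S and unknown read depth limit what can be read from these values.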
